A study of Caenorhabditis elegans with 15 samples.

Results

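Each of the 12 libraries from *nrx-1* and *nlg-1* mutant worms was classed, with members chosen by measured counts, on the share of its counts that fell on 3 small noncoding RNAs, ZC155.8, R144.15 and *rpr-1*. In 8 of the 12 libraries this share was above 8% (SRP-rich libraries) and in 4 it was below 8% (SRP-poor libraries), out of 15 libraries in the series, the other 3 being N2. The classes were read from the counts and are in no sample label, so they are not groups of the study, and the shares that made them are given as a description without a test. The SRP-rich class held *nrx-1* (ok1649) replicates 2 and 3, all 3 *nrx-1* (tm1961) replicates, *nlg-1* (ok259) replicates 2 and 3 and *nlg-1* (tm474) replicate 2. The SRP-poor class held replicate 1 of *nrx-1* (ok1649), replicate 1 of *nlg-1* (ok259) and replicates 1 and 3 of *nlg-1* (tm474).

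The ok1649 and tm1961 alleles are loss-of-function mutations of *nrx-1*, the worm neurexin, and ok259 and tm474 of *nlg-1*, the worm neuroligin, and N2 is the wild-type strain without them. All samples were whole young adult worms, about 20000 per sample, grown at 20 °C on OP50 bacteria, with 3 separate preparations per strain, and total RNA was depleted of rRNA before sequencing. Each allele is a single strain, so allele and strain background cannot be told apart. Total counts were 13892075 to 23094423 in SRP-rich libraries, 10152578 to 26211067 in SRP-poor libraries and 22028366 to 24084262 in N2 libraries. The level of *nrx-1*, in counts per 1000000 (CPM), scaled with TMM (trimmed mean of M values) factors and computed without the 3 RNAs, was 7.40 to 10.03 in *nrx-1* (ok1649) and 4.92 to 9.65 in *nrx-1* (tm1961), against 11.3 to 13.7 in N2. That of *nlg-1* was 9.15 to 10.4 in *nlg-1* (ok259) and 1.61 to 7.70 in *nlg-1* (tm474), against 12.96 to 21.02 in N2.

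The signal recognition particle (SRP) is a complex of protein and a structured noncoding RNA that binds ribosomes as they make secreted and membrane proteins and brings them to the Sec61 channel of the endoplasmic reticulum (ER). ZC155.8 and R144.15 are SRP RNA genes, named *srpr-2.1* and *srpr-2.2* in the current annotation, and *rpr-1* encodes the RNA of RNase P, which trims the 5′ ends of transfer RNAs. These RNAs are short, abundant and not polyadenylated, so they are seen in total RNA libraries. In WBcel235 with the Ensembl annotation, ZC155.8 lies on chromosome III from 5211220 to 5211518 and R144.15 on chromosome III from 5031410 to 5031708, both 299 bases long. *rpr-1* lies on chromosome I from 13463955 to 13464207 and is 253 bases long. The copies of SRP RNA are close to each other in sequence and only uniquely mapped reads were counted, so the split of reads between ZC155.8 and R144.15 is uncertain.

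The 3 RNAs together made up 16.40% and 19.3% of the counts of the SRP-rich *nrx-1* (ok1649) libraries, against 2.45% in the SRP-poor one. In *nlg-1* (ok259) the share was 22.98% and 23.04% in the SRP-rich libraries, against 1.42% in the SRP-poor one. In *nlg-1* (tm474) it was 15.5% in the SRP-rich library, against 5.02% and 3.54% in the SRP-poor ones. The 3 *nrx-1* (tm1961) libraries had 16.5%, 11.6% and 19.4%, and the N2 libraries 2.87%, 2.57% and 3.40%. SRP-poor libraries thus lay on both sides of N2, while SRP-rich libraries had a mean share of 18.1% ± 3.88 (SD, n = 8), against 3.11% ± 1.54 (SD, n = 4) in SRP-poor libraries. Closest to the threshold were *nrx-1* (tm1961) replicate 2 above it, with 11.61% (95% exact binomial interval 11.60% to 11.62%), and *nlg-1* (tm474) replicate 1 below it, with 5.02% (5.01% to 5.03%). The intervals cover counting error only.

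**Figure D1:**
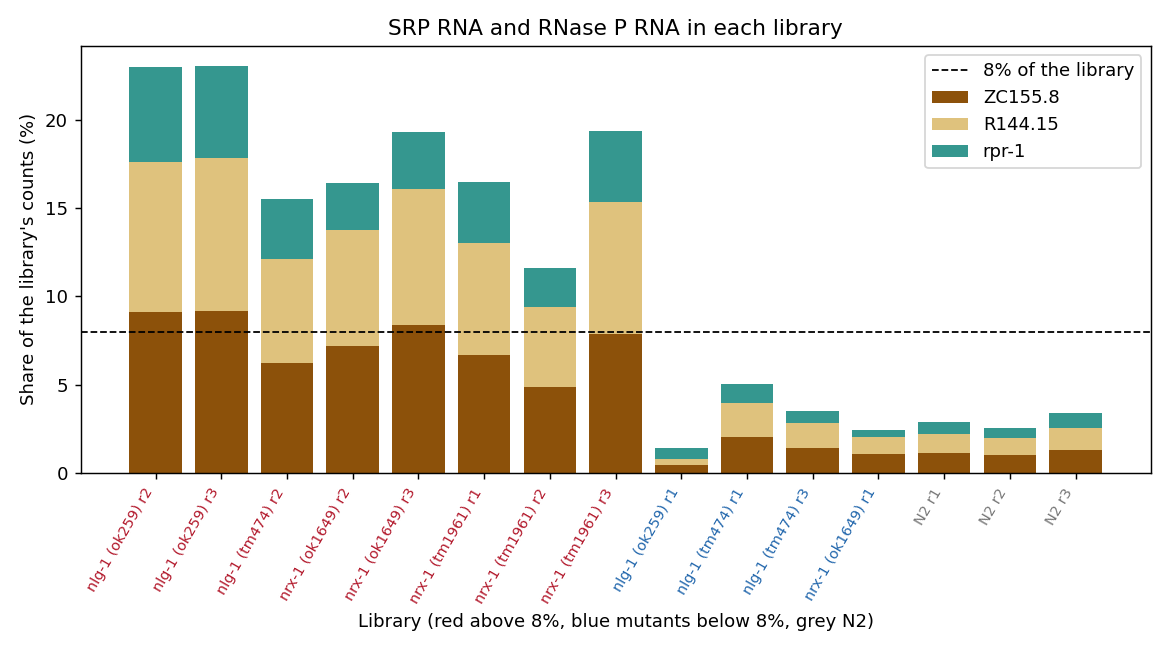
Share of each library's counts (%) on ZC155.8, R144.15 and rpr-1, stacked, for the 8 SRP-rich libraries (red labels), the 4 SRP-poor libraries (blue) and N2 (grey). The dashed line marks 8%; no library lies between 5.02% and 11.6%.

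All 3 RNAs were abundant in the SRP-rich libraries. ZC155.8 took 4.85% to 9.15% of the counts of SRP-rich libraries, against 0.429% to 2.05% of SRP-poor libraries and 1.01% to 1.32% of N2 libraries. The ratio of ZC155.8 to R144.15 counts was 1.05 to 1.09 in SRP-rich libraries, 1.04 to 1.12 in SRP-poor libraries and 1.06 to 1.09 in N2, a near constant ratio across classes. *rpr-1* was less tightly tied to them, at 0.365 to 0.592 counts per ZC155.8 count in SRP-rich libraries, 0.372 to 1.42 in SRP-poor libraries and 0.564 to 0.657 in N2.

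In *nrx-1* (ok1649) and *nlg-1* (ok259) the SRP-poor library was replicate 1, so class and replicate number cannot be told apart there. In *nlg-1* (tm474) the SRP-poor replicate 3 separates them, but only through replicate 2 against replicate 3. Class cannot be told apart there from any other difference between these libraries. The medians of lists in *nlg-1* (tm474) replicate 2 against replicates 1 and 3 are given beside each list where they differ in sign. In *nrx-1* (tm1961) all libraries were SRP-rich, so its share and its genotype cannot be told apart. The comparison of the other genes therefore used the 9 libraries of the 3 strains with both classes (5 SRP-rich, 4 SRP-poor), with strain as covariate and the 3 RNAs removed. A gene was called at an adjusted p (Benjamini-Hochberg) below 0.05 in edgeR's quasi-likelihood test and an absolute log2 fold change above 1.

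The classes differed widely beyond the 3 RNAs. Of 16927 genes tested, 3410 were higher (20.1%) and 3839 lower (22.7%) in SRP-rich libraries, 42.8% in all. DESeq2 called 4124 higher (24.4%) and 4187 lower (24.7%), 49.1% in all. Without a test, 24.5% of genes were higher and 19.7% lower in each of the 5 SRP-rich libraries than in all 4 SRP-poor libraries. The difference did not pass a test of strain dependence for any gene (0 genes in edgeR for the interaction of strain and class, 516 at an unadjusted p below 0.05, smallest adjusted p = 0.789). The balance of the calls depends on scaling. With plain library totals in place of TMM factors 6980 genes were higher and 1736 lower, and the median log2 fold change over all genes was 1.24 instead of 0.31, and the fold changes given here are relative to TMM scaling. Moving *nlg-1* (tm474) replicate 1, at 5.02%, into the SRP-rich class left 0 genes called in edgeR (2613 higher and 3827 lower at an unadjusted p below 0.05), while DESeq2 then called 2324 higher and 3387 lower.

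Library by library, the called genes separated SRP-rich from SRP-poor libraries, as the choice of genes fixes for the 9 libraries used. Relative to the mean of N2, the median of the genes called higher was 0.69 to 1.42 on the log2 scale in SRP-rich libraries and -0.46 to -0.03 in SRP-poor libraries. That of the genes called lower was -1.58 to -0.74 in SRP-rich libraries and -0.02 to 0.71 in SRP-poor libraries. *nlg-1* (tm474) replicate 3 lay nearest to N2 among SRP-poor libraries, at -0.03 for the genes called higher and -0.02 for those called lower.

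**Figure D2:**
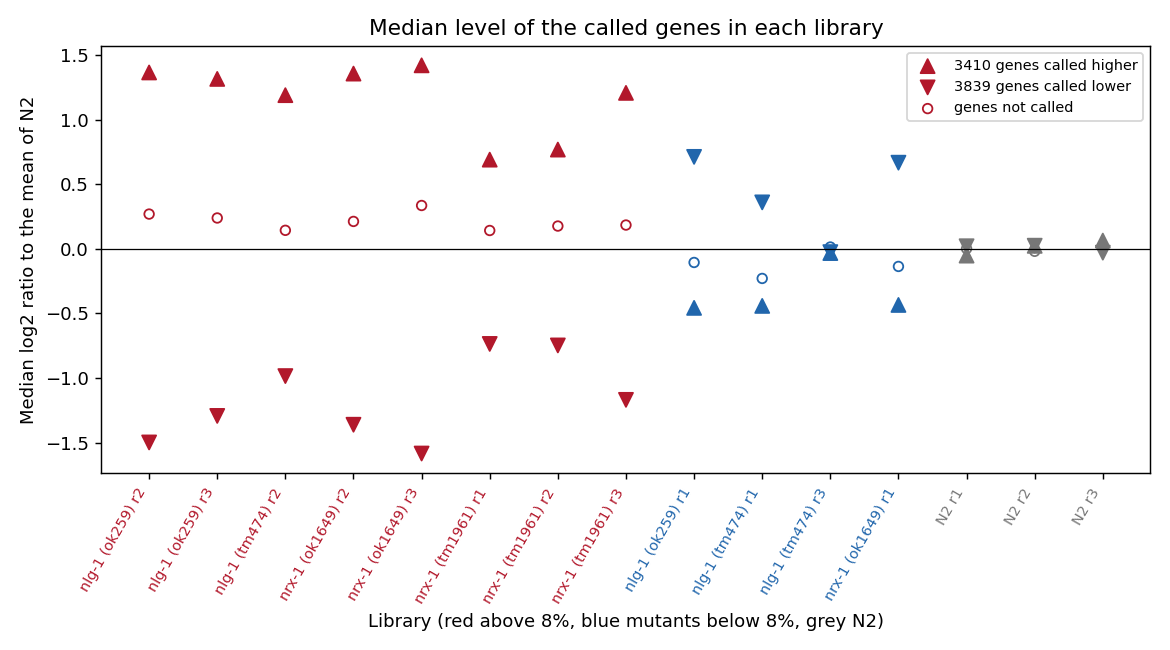
Median log2 ratio to the mean of the 3 N2 libraries, for genes called higher (upward triangles), called lower (downward triangles) and not called (open circles), in each library. The SRP-rich libraries (red) lie between 0.69 and 1.42 for the genes called higher; the 3 nrx-1 (tm1961) libraries among them were not used to choose the genes.

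The *nrx-1* (tm1961) and N2 libraries had no part in choosing the genes. In *nrx-1* (tm1961) against N2, 3295 of the genes called higher in SRP-rich libraries were tested, and 96.0% of them had a positive log2 fold change, with a median of 1.10. Of the 3810 tested genes called lower, 94.5% had a negative one, with a median of -0.85, beside 55.3% positive and a median of 0.17 over all 16339 genes tested. Strain and share cannot be told apart in this comparison, which by itself gave 0 calls in edgeR (3329 higher and 2289 lower at an unadjusted p below 0.05, smallest adjusted p = 0.0747) and 1888 higher (11.6%) and 1527 lower (9.35%) in DESeq2, 20.9% in all. Without *nrx-1* (tm1961) replicate 1 edgeR called 3140 higher and 2980 lower.

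Against N2, over all 15 libraries without strain, SRP-rich libraries had 3791 higher genes (21.9%) and 2787 lower genes (16.1%) of 17320 in edgeR, 38% in all. SRP-poor libraries had 0 (1337 higher and 1884 lower at an unadjusted p below 0.05, smallest adjusted p = 0.0646), and without *nlg-1* (tm474) replicate 3 they had 281 higher and 2315 lower. Both comparisons share the N2 libraries.

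The genes called higher were short and the genes called lower were long. Median exon length was 877 bases for genes called higher, 1897 bases for genes called lower and 1251 bases for genes not called. The median log2 fold change was 1.22 for the 717 genes under 250 bases, 0.42 for the 4175 genes of 1000 to 1500 bases and -1.40 for the 382 genes of 5000 bases or more. Of the shortest genes 26.1% were higher and 3.07% lower, and of the longest 0.524% were higher and 61.3% lower. Each strain showed the same contrast between the shortest and the longest bin, with medians of 0.91 and -1.50 in *nrx-1* (ok1649). In *nlg-1* (ok259) they were 0.82 and -1.29, while *nlg-1* (tm474) had 0.58 and -1.05. They were 0.84 and -0.84 in *nrx-1* (tm1961) against N2. The genes called lower were also more abundant, with a median of 54.1 CPM in N2, against 4.67 CPM for genes called higher. The part of length in each gene's change was not tested, but with the length trend of each library removed, an alternative chosen after the lengths were seen, 2211 genes were higher and 3522 lower.

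**Figure D3:**
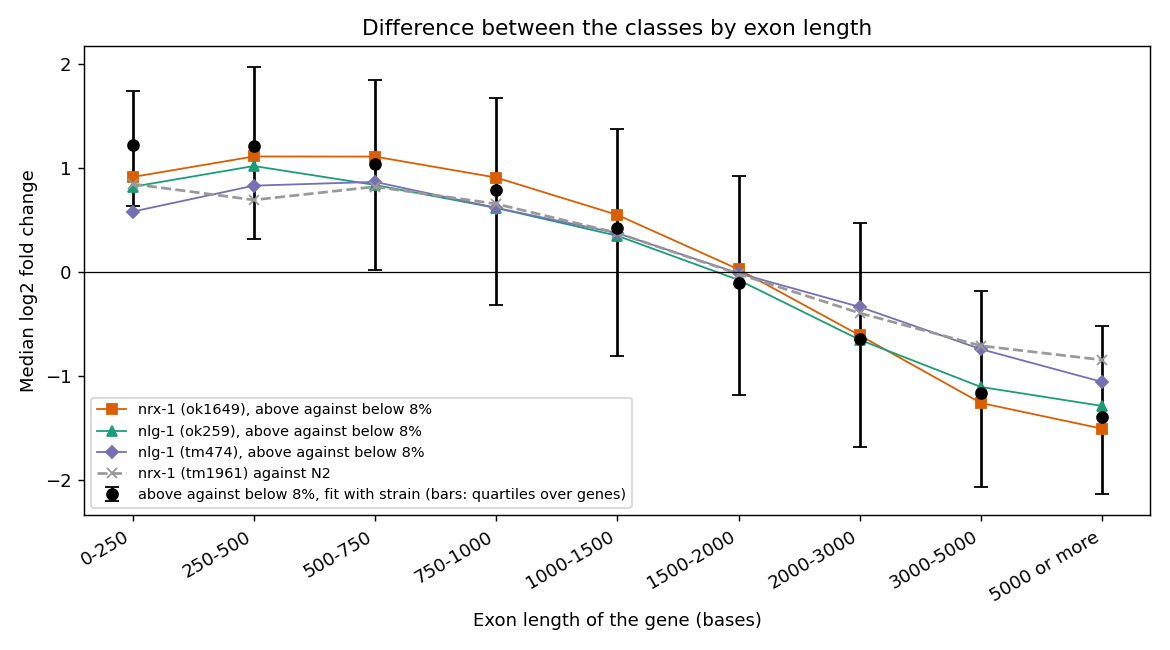
Median log2 fold change of genes binned by exon length in bases, SRP-rich over SRP-poor libraries in the fit with strain (black, bars from the lower to the upper quartile over genes), in each strain, and in nrx-1 (tm1961) against N2 (dashed). All 5 series lie above 0 under 1500 bases and below 0 at 2000 bases and more.

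Outside the 3 RNAs, noncoding genes took 7.51% of the counts in SRP-rich libraries and 1.66% in SRP-poor libraries of the 3 strains. The within-strain difference was 5.66 percentage points (SD over strains 2.08, n = 3), higher in 3 of 3 strains. This share still includes B0285.12, a further SRP RNA gene described below, so it is not independent of the measure that made the classes. The exact permutation test within strains gave p = 0.037, the smallest it allows with 27 arrangements, and 0.0519 after adjustment over 7 library-level values, so that no library-level value passed 0.05 once adjusted. The snoRNAs, which guide modification of ribosomal RNA, had 54 of 178 tested genes higher (30.3%) and 5 lower (2.81%). Their median log2 fold change was 1.05, beside 1.22 for all genes in the same length bins. Of the 717 genes under 250 bases 26.1% were higher and 3.07% lower. Only 105 of these were protein-coding (median 1.48), so this reference is drawn largely from noncoding genes. The lincRNAs had 34 of 92 higher and 2 lower (median 1.30), and the snRNAs, the RNAs of the spliceosome, 7 of 24 higher and 0 lower (median 1.17), beside medians of 1.04 and 1.22 in the same length bins. With the length trend removed the medians were -0.15 for snoRNAs, 0.64 for lincRNAs and 0.02 for snRNAs.

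B0285.12, a further SRP RNA gene (*srpr-1.2*, chromosome III, 4369468 to 4369766), was measured at 5198 to 9564 CPM in SRP-rich libraries (median 7697), against 815, 1672, 1705 and 3186 CPM in SRP-poor libraries and 1247, 1329 and 1349 CPM in N2. Every SRP-rich library was above every SRP-poor one, with a log2 fold change of 2.16 (SE, the standard error, of 0.48). B0285.12 is a further gene for the RNA whose share made the classes. Its values are therefore a description and not separate support for the split. *mrpr-1*, the RNA of RNase MRP, which cleaves ribosomal RNA precursors, had 3336 to 9416 CPM in SRP-rich libraries (median 6588), against 1197, 1579, 2101 and 3380 CPM in SRP-poor libraries and 1556, 1680 and 1756 CPM in N2. The SRP-rich *nrx-1* (tm1961) replicate 2 and the SRP-poor *nlg-1* (tm474) replicate 1 met at the edge of the classes, and the log2 fold change was 1.61 (SE 0.38 and adjusted p = 0.00863). *lfor-1*, a noncoding RNA of 299 bases, had a log2 fold change of 2.12 (SE 0.35 and adjusted p = 0.00159). B0285.12 and *lfor-1* were named after their values were seen.

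Of the 12 tested genes for SRP proteins and entry into the ER, 7 were lower and 1 higher, with a median log2 fold change of -1.52, beside 1.04 for all genes in the same length bins and 0.31 over all genes. *sec-61*, the channel through which new proteins enter the ER, was at 105 to 446 CPM in SRP-rich libraries (median 312), against 2259, 2266, 2419 and 2534 CPM in SRP-poor libraries and 1851, 2088 and 576 CPM in N2. The classes did not overlap, and N2 replicate 3 lay between them, nearer to the SRP-rich libraries. For *sec-61* the log2 fold change was -3.29 (SE 0.42 and adjusted p = 0.000641). *srpa-72*, a protein subunit of SRP itself, fell by 2.61 on the log2 scale, to 22.3 to 79.0 CPM in SRP-rich libraries, against 228 to 328 CPM in SRP-poor libraries.

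The TRAP complex sits beside the Sec61 channel. Its genes *trap-1*, *trap-2*, *trap-3* and *trap-4* were lower, with log2 fold changes of -3.15 (*trap-1*), -1.54 (*trap-2*), -2.79 (*trap-3*) and -1.95 (*trap-4*), as was Y38F2AR.9 (-1.49), another gene of the list. C34B2.10 (1.14), of the signal peptidase, was the only member called higher, and 4 members were not called. These genes were named after their values were seen, and with plain library totals *trap-2* (-0.63) and Y38F2AR.9 (-0.57) were no longer called. Among proteins that fold others in the ER, 8 of 12 were lower and 0 higher (median -1.45), including *enpl-1* (-2.23), the ER form of Hsp90, and *crt-1* (-1.82), calreticulin.

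Genes for making and clearing proteins stood lower in SRP-rich libraries. Of 82 genes for cytoplasmic ribosomal proteins, 57 were lower and 5 higher (median -1.57), although these genes are short (median 532 bases) and all genes in the same length bins had a median of 1.04. *rpl-4*, of the large subunit, had 296 to 1713 CPM in SRP-rich libraries (median 699), against 4808, 5415, 5568 and 5655 CPM in SRP-poor libraries and 2849, 4852 and 5229 CPM in N2. No SRP-rich library reached the SRP-poor range, and the log2 fold change was -3.18 (SE 0.40 and adjusted p = 0.000632). *rpl-3* (-2.69) and *rpl-20* (-2.67) fell as well. The 5 members called higher were *rpl-42* (2.29), *rpl-41.1* (1.33), *rpl-29* (1.16), *rpl-22* (1.15) and *rps-17* (1.03), and with the length trend removed *rps-17* turned to -0.04. As a share of counts, ribosomal protein genes made up 8.79% in SRP-rich and 12.04% in SRP-poor libraries of the 3 strains, against 16.08% ± 0.772 (SD, n = 3) in N2. The within-strain difference was -2.62 percentage points (SD 0.724, n = 3, exact permutation p = 0.037, adjusted 0.0519).

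All 8 genes of the CCT chaperonin, which folds actin and tubulin, were lower (median -1.90), among them *cct-8* (-2.59) and *cct-1* (-2.31). The proteasome, which degrades tagged proteins, had 21 of 33 genes lower, such as *rpt-6* (-2.44) and *rpn-1* (-2.34), and 1 higher, *pas-5* (1.08), with a median of -1.63. Of 35 spliceosome genes 18 were lower (median -1.04), with *snrp-200* (-2.73) and *sftb-2* (-2.65), and *snr-7* (1.07) was higher. The spliceosome median was -0.53 in *nlg-1* (tm474) replicate 2 against replicate 1 and 0.16 against replicate 3. It was -0.11 with plain library totals. With replicate number added to the fit it was -0.0072, a value that rests on *nlg-1* (tm474) replicate 3 alone. *pas-5*, *snr-7*, *rpl-22* and *rpl-29* lost their calls under 14, 13, 13 and 12 of 31 alternatives.

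Of 15 heat shock genes 7 were lower, 4 higher and 4 not called. The constitutive chaperones *hsp-1* (-2.61), *daf-21* (-2.098), *hsp-60* (-2.87) and *hsp-6* (-2.76), of the cytoplasm and the mitochondrion, were lower, as were *hsp-110* and the small heat shock genes *hsp-12.2* and *hsp-25*. *hsp-60* had 88.5 to 314 CPM in SRP-rich libraries, against 1158 to 1424 CPM in SRP-poor libraries and 389 to 949 CPM in N2. The genes called higher, all small heat shock genes, were *hsp-16.41* (2.94), *hsp-16.2* (2.47), *hsp-12.1* (2.04) and *hsp-17* (1.59). Their levels were low, *hsp-16.41* having 0.241 to 8.19 CPM in SRP-rich libraries, against 0.072 to 4.74 CPM in SRP-poor libraries and 0.83 to 3.31 CPM in N2, and the classes overlapped. *hsp-16.2* lost its call under 16 of 31 alternatives.

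The mitochondrial and the nuclear genes of the respiratory chain differed in direction. All 12 protein-coding genes of the mitochondrial genome were higher, with a median log2 fold change of 2.25, while of 44 nuclear genes for the same complexes 28 were lower and 4 higher, with a median of -1.45. *ctc-1*, cytochrome c oxidase subunit I (mitochondrial genome, 7827 to 9428), had 12564 to 36070 CPM in SRP-rich libraries (median 24771), against 4223, 6486, 9316 and 10321 CPM in SRP-poor libraries and 4088, 6004 and 6459 CPM in N2. Its log2 fold change was 2.01 (SE 0.32 and adjusted p = 0.0012), with no overlap. *atp-6* (2.40), *nduo-4* (2.26) and *ctb-1* (2.12), of ATP synthase and complexes I and III, were higher by similar amounts. Together the mitochondrial genes took 8.84% of the counts of SRP-rich and 1.40% of SRP-poor libraries in the 3 strains, a difference of 7.79 percentage points within strains (SD 0.524, n = 3, exact permutation p = 0.037, adjusted 0.0519), against 1.33% ± 0.0791 (SD, n = 3) in N2. In *nrx-1* (tm1961), which that test did not use, the share was 5.32%, 5.02% and 8.63%.

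Of the nuclear genes, *atp-2*, the beta subunit of ATP synthase, had 369 to 2033 CPM in SRP-rich libraries (median 814), against 4709 to 5434 CPM in SRP-poor libraries and 2342 to 4334 CPM in N2. Its log2 fold change was -2.82 (SE 0.36 and adjusted p = 0.000635). H28O16.1 (-3.03) and *ucr-2.1* (-2.76) were also lower, while *cyc-2.2* (1.66), F45H11.5 (1.40), *nuo-6* (1.27) and *ucr-11* (1.21), of 281 to 650 bases, were higher and were named after their values were seen. Genes of the mitochondrial ribosome, also nuclear, had 21 of 70 higher and 8 lower (median 0.48, beside 0.79 in the same length bins), with *mrpl-40* (-2.36) the member of smallest p.

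**Figure D4:**
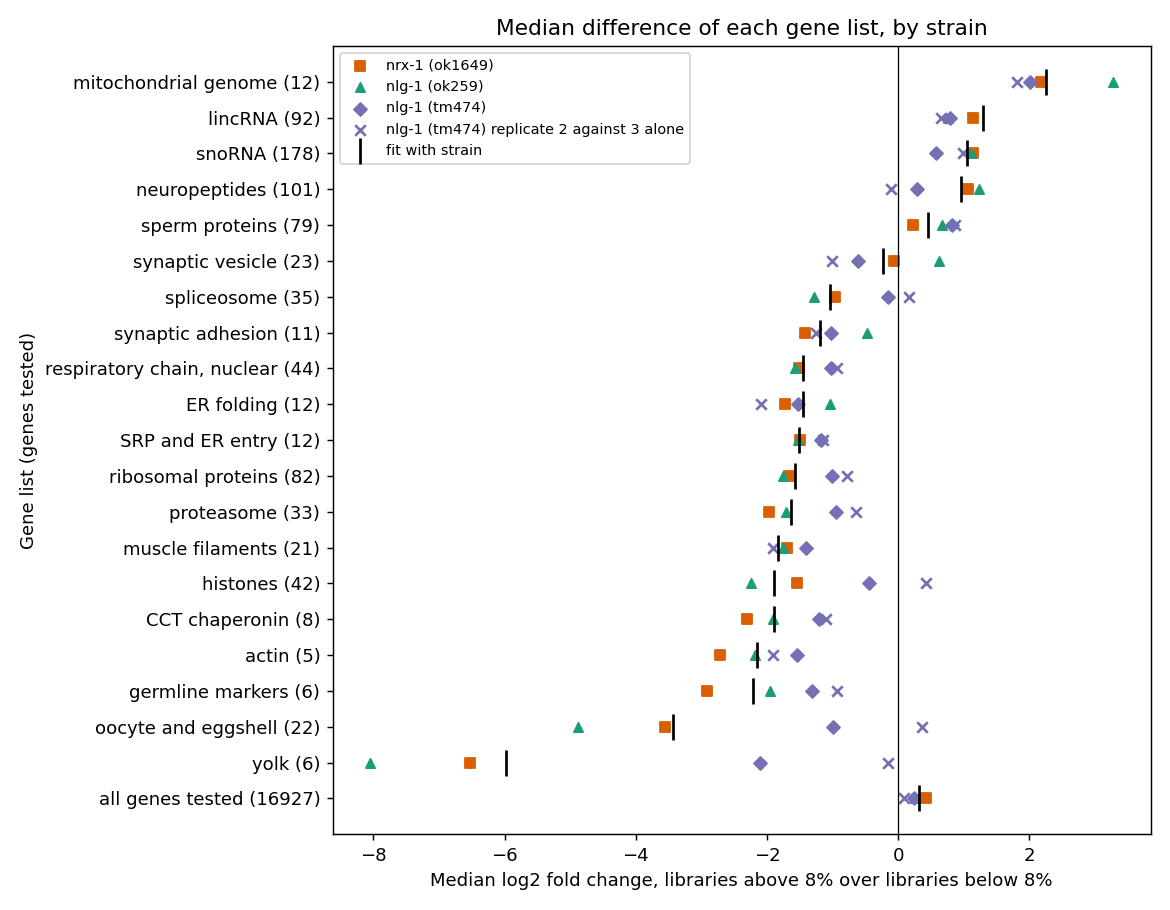
Median log2 fold change of SRP-rich over SRP-poor libraries for 20 gene lists and all genes tested (genes tested in brackets), by strain, for nlg-1 (tm474) replicate 2 against replicate 3 alone (crosses), and in the fit with strain (black bars). The mitochondrial genome lies between 1.81 and 3.28 in every series, while yolk lies at -6.53 and -8.05 in nrx-1 (ok1649) and nlg-1 (ok259) but at -0.16 in nlg-1 (tm474) replicate 2 against 3.

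Genes of yolk and oocytes had the largest list medians below 0, set mainly by the replicate 1 libraries. All 6 *vit* genes, which encode the yolk proteins that the intestine supplies to oocytes, were lower (median -5.98, beside -1.16 in the same length bins). *vit-2* had 111 to 2022 CPM in SRP-rich libraries (median 470), against 47497 CPM in *nlg-1* (ok259) replicate 1, 36118 CPM in *nrx-1* (ok1649) replicate 1, 36117 CPM in *nlg-1* (tm474) replicate 1 and 2905 CPM in *nlg-1* (tm474) replicate 3. N2 had 3450, 7664 and 8760 CPM. The 3 SRP-poor replicate 1 libraries thus stood far above N2, while *nlg-1* (tm474) replicate 3 stood below N2 and close to the highest SRP-rich library. The log2 fold change was -5.99 (SE 1.06 and adjusted p = 0.00206) for *vit-2* and -5.63 for *vit-6*. Over the 6 genes the median was -4.21 for *nlg-1* (tm474) replicate 2 against replicate 1 and -0.16 against replicate 3.

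The same holds for genes of the oocyte and eggshell, of which 18 of 22 were lower (median -3.43) and *cpg-9* (1.71) was higher. In *nlg-1* (tm474) their median was -2.34 for replicate 2 against replicate 1 and 0.37 against replicate 3. Their summed level was 949 to 3314 CPM in SRP-rich libraries, against 20208, 16114 and 16056 CPM in the SRP-poor replicate 1 libraries and 2920 CPM in *nlg-1* (tm474) replicate 3, and 3575 to 5778 CPM in N2. *cbd-1*, a chitin-binding eggshell protein, fell by 5.30 on the log2 scale and *egg-6* by 3.40. Histone genes, 26 of 42 lower and 2 higher (*his-70*, 2.23, and *his-37*, 1.72), had a median of -1.89, but 0.42 in *nlg-1* (tm474) replicate 2 against 3 and -1.25 against 1. *his-72*, a replacement H3 histone, was lower there too, with 23.6 to 92.6 CPM in SRP-rich libraries, against 155 CPM in *nlg-1* (tm474) replicate 3 and 241 to 259 CPM in the other SRP-poor libraries (log2 fold change -2.58).

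Germline markers were 5 of 6 lower (median -2.22, beside -0.65 in the same length bins and -1.57 with the length trend removed). Those lower were *gld-1* (-3.76), which holds back translation in the germline, *nos-3* (-2.84), *pgl-1* (-2.28), *glh-1* (-1.89) and *htp-3*. *gld-1* had 51.1 to 165 CPM in SRP-rich libraries, against 400.0, 1094, 1484 and 1538 CPM in SRP-poor libraries and 408, 477 and 633 CPM in N2, with no overlap. Sperm genes had 23 of 79 higher (29.1%) and 5 lower (6.33%), beside 39.1% and 7.41% of all genes of 250 to 500 bases. Their median was 0.45, beside 1.21 in the same length bins, with *ssp-33* (2.301) of the smallest p. Of 21 meiosis and germ granule genes 0 were higher and 10 lower (47.6%), beside 38.6% lower among genes of 2000 to 3000 bases. Their median was -0.60, beside -0.65 in the same length bins and 0.34 with plain library totals. The meiosis median was -0.32 in *nlg-1* (tm474) replicate 2 against replicate 1 and 0.60 against replicate 3. In whole worms fewer cells of a type and less RNA per cell cannot be told apart.

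Muscle and intestine markers were mostly lower. Of 21 genes for muscle filaments 17 were lower (median -1.83, beside -0.10 in the same length bins). *pat-10* (1.14) and *tni-4* (1.00), troponin genes, were higher. The call of *tni-4* held under 12 of 31 alternatives. *unc-54*, the main body wall myosin, had 641 to 4430 CPM in SRP-rich libraries (median 1639), against 5770, 9844, 11978 and 14949 CPM in SRP-poor libraries and 3095, 9211 and 9673 CPM in N2. The classes did not overlap, with a log2 fold change of -2.84 (SE 0.42 and adjusted p = 0.000996). *unc-15* (-3.17), paramyosin, *myo-2* (-3.48), a pharyngeal myosin, and all 5 actin genes (median -2.15, *act-4* -2.66) fell in the same way. Summed over the 4 muscle markers the level was 908 to 6247 CPM in SRP-rich libraries, against 7745 to 20238 CPM in SRP-poor libraries and 4517 to 13418 CPM in N2.

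Of 7 intestine markers 5 were lower and *mtl-1* (2.16), a metallothionein, was higher, a call that 16 of 31 alternatives did not keep. The summed level was 726 to 4760 CPM in SRP-rich libraries, against 9080 to 9338 CPM in SRP-poor libraries and 7767 to 12497 CPM in N2. *asp-1*, an aspartic protease of the gut, fell by 3.34 on the log2 scale and *clec-63*, a C-type lectin, by 3.27. Of 7 epidermis markers *lin-26* (-2.57) and *col-19* (-2.89) were lower, 0 were higher and 5 were not called. Their median was -0.53, turned to 0.38 with plain library totals, and was 0.40 in *nlg-1* (tm474) replicate 2 against replicate 1 and -3.56 against replicate 3. They had a summed level of 454 to 1305 CPM in SRP-rich libraries, against 2477 to 4003 CPM in SRP-poor libraries and 1989 to 2330 CPM in N2. None of these markers was at 0 in all libraries. The part of tissue make-up in the differences between the classes was not tested.

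Neuronal genes were called in both directions. Of 7 neuron markers *snt-1* (2.13), *rgef-1* (1.48) and *unc-64* (1.04) were higher and *egl-3* (-1.26) was lower, with a summed level of 141 to 295 CPM in SRP-rich libraries, 122 to 255 CPM in SRP-poor libraries and 193 to 268 CPM in N2, so that the ranges overlapped. *snt-1*, synaptotagmin, had 22.1 to 42.7 CPM in SRP-rich libraries (median 33.4), against 6.06, 7.06, 7.37 and 11.7 CPM in SRP-poor libraries and 7.82, 9.25 and 10.01 CPM in N2. No SRP-poor or N2 library reached the SRP-rich range (log2 fold change 2.13, standard error 0.32, adjusted p = 0.000996). *unc-64* and *egl-3* each lost the call under 15 of 31 alternatives.

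Of 23 synaptic vesicle and active zone genes 4 were higher (17.4%) and 6 lower (26.1%), near the 20.1% and 22.7% over all genes tested. Those higher were *ric-4* (2.00), the worm SNAP-25, *unc-46* (1.49), *snt-1* and *unc-64*. Those lower included *unc-11* (-2.84), a clathrin adaptor, and *snb-1* (-1.59), synaptobrevin. Of the 3 membrane fusion proteins of the vesicle cycle, *ric-4* and *unc-64* (syntaxin) were higher and *snb-1* lower. The median was -0.24 and turned to 0.66 with plain library totals. In *nlg-1* (tm474) it was 0.18 for replicate 2 against replicate 1 and -1.02 against replicate 3. *snb-1* had 25.97 to 63.9 CPM in SRP-rich libraries, against 93.4 to 110 CPM in SRP-poor libraries and 92.6 to 109 CPM in N2, and lost its call with plain library totals.

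Neuropeptide genes, which are short (median 572 bases), had 30 of 101 higher (29.7%) and 4 lower (3.96%). Over all genes tested 20.1% were higher and 22.7% lower, and over genes of 500 to 750 bases 36.6% and 9.08%. The neuropeptide median was 0.96, beside 1.04 in the same length bins and -0.06 with the length trend removed. *nlp-47* had 14.2 to 53.9 CPM in SRP-rich libraries (median 40.3), against 9.84, 9.86, 11.4 and 12.06 CPM in SRP-poor libraries and 12.4, 12.5 and 13.7 CPM in N2, with a log2 fold change of 1.73 (SE 0.22 and adjusted p = 0.000648). The members called lower were *nlp-56* (-2.84), *flp-33* (-1.84), *flp-28* (-1.13) and *nlp-53* (-1.10). *nlp-53* lost its call under 22 of 30 alternatives and *flp-28* under 12 of 31. In *nlg-1* (tm474) the median of the list was 0.63 for replicate 2 against replicate 1 and -0.11 against replicate 3.

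The targeted genes themselves were not called between the classes. *nrx-1* had 4.92 to 11.6 CPM in SRP-rich libraries (median 9.84), against 5.59, 7.50, 8.11 and 13.3 CPM in SRP-poor libraries. Its log2 fold change was 0.12 (SE 0.35 and adjusted p = 0.785), with a sign that 8 of 31 alternatives turned and a call, at 1.49, when the length trend was removed. *nlg-1* had 1.61 to 20.7 CPM in SRP-rich libraries (median 5.07), against 1.77, 7.70, 10.09 and 12.3 CPM in SRP-poor libraries, with a log2 fold change of -1.19 (SE 0.54 and adjusted p = 0.0966). DESeq2, the replicate block and the fit without a filter put *nlg-1* past the threshold. Of the 11 tested neurexin, neuroligin and partner genes of the synapse 6 were lower and 0 higher (median -1.19, beside -1.16 in the same length bins), such as *ptp-3* (-2.13), *lat-1* (-1.93) and *itx-1* (-1.78), whose calls were lost when the length trend was removed.

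**Figure D5:**
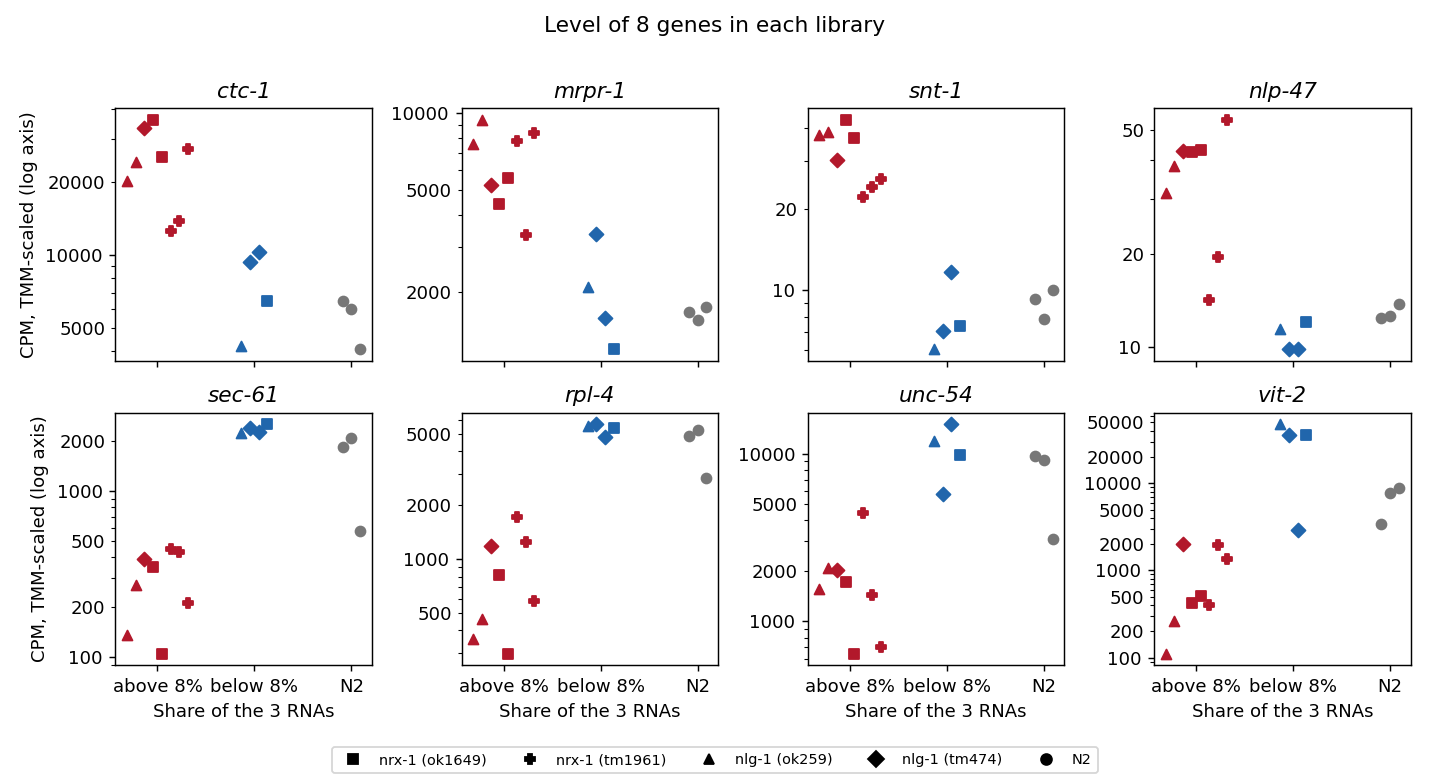
Level (CPM scaled with TMM factors, log axis) of 8 genes in each library, with SRP-rich libraries (red) on the left, SRP-poor libraries (blue) in the middle and N2 (grey) on the right; marker shapes give the strain. ctc-1, snt-1 and nlp-47 lie higher and sec-61, rpl-4, unc-54 and vit-2 lower in every SRP-rich library than in any SRP-poor library, while mrpr-1 overlaps at its edge.

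The following genes had the smallest adjusted p among those whose SRP-rich libraries all lay on one side of the SRP-poor ones within each strain. C02F5.5 had 20.3 to 76.4 CPM in SRP-rich libraries (median 64.8), against 8.36, 10.3, 11.46 and 11.7 CPM in SRP-poor libraries and 17.4, 23.5 and 33.5 CPM in N2, with a log2 fold change of 2.57 (SE 0.24 and adjusted p = 0.000591). C50F4.10 (2.72), C43G2.3 (2.56), C04F12.7 (2.32), F41H10.1 (2.14) and Y43C5B.3 (2.07) followed, of which Y43C5B.3 is long, at 3761 bases.

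Among those lower, the genes named here had exons of 2988 to 9118 bases. *hrpu-1*, an RNA-binding protein gene of 5451 bases, had 14.1 to 50.7 CPM in SRP-rich libraries (median 24.1), against 173, 208, 217 and 345 CPM in SRP-poor libraries and 127, 186 and 193 CPM in N2, with a log2 fold change of -3.70 (SE 0.30 and adjusted p = 0.000591). The chromatin genes *set-16* (-3.77), a histone methyltransferase, *cbp-1* (-2.67), a histone acetyltransferase, and *ssl-1* (-3.09), a chromatin remodeller, were among them, as was *larp-5* (-3.89). *plx-1* (-2.86), a plexin receptor, *vab-1* (-3.17), an Eph receptor, and *unc-34* (-3.15), the worm Enabled, act in axon guidance.

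The remaining lists were mixed, beside 20.1% of all genes tested higher and 22.7% lower. Cuticle collagens had 9 of 145 higher and 32 lower, with a median of 0.54 although their summed level was 17379 to 44302 CPM in SRP-rich libraries, against 57205 to 86045 CPM in SRP-poor libraries and 51592 to 84192 CPM in N2. The sign of the collagen median was not stable, at -0.76 without *nlg-1* (ok259) replicate 1, 1.55 without *nlg-1* (tm474) replicate 3, and 1.13 and -1.61 in *nlg-1* (tm474) replicate 2 against replicates 1 and 3. C-type lectins had 17 of 122 higher and 28 lower, glutathione S-transferases 7 of 38 higher, among them *gst-6* (1.87), and 2 lower, and cytochrome P450 genes 8 of 56 higher and 3 lower. Genes of molting and the apical matrix had 3 of 64 higher and 4 lower, with medians of 0.89 and -1.75 in *nlg-1* (tm474) replicate 2 against replicates 1 and 3. Their summed level was highest in *nlg-1* (tm474) replicate 3, at 8994 CPM, against 931 to 1324 CPM in the other SRP-poor libraries and 494 to 4863 CPM in SRP-rich libraries. Genes of the *abu* and *pqn* families had 5 of 66 higher and 20 lower, and the 4 tested protein genes of RNase P and MRP had 0 called (medians -0.55 and 0.28). For *abu* and *pqn* genes *nlg-1* (tm474) replicate 2 gave 0.36 against replicate 1 and -1.28 against replicate 3, and the same medians were 0.23 and -0.07 for glutathione S-transferases and 0.0068 and -0.99 for heat shock genes.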

How the data were processed

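Whole-worm total RNA was sequenced from strand-specific, rRNA-depleted libraries. The authors used Trimmomatic for trimming and STAR for alignment to the Ensembl genome (WBcel235 in the submitters' notes, which also name bcl2fastq 2.20), then counted uniquely mapped exon reads with featureCounts. The deposited values are these raw counts per gene, without normalization; the strand setting is not given in the sources used here, so overlapping antisense genes are uncertain.

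Of 46756 genes, 46581 matched Ensembl 115. Counts without the 3 RNAs were fitted in edgeR 4.0.16 (R 4.3.3; TMM, filterByExpr, quasi-likelihood, strain as covariate), with DESeq2 1.42.0 as an alternative. Log2 library ratios used a pseudocount of 0.5 CPM. Exon length is the union of a gene's exons. Library-level values were tested by exact two-sided permutation within strain. P-values for SRP-rich against SRP-poor libraries weigh a difference against the spread left among the 9 libraries after strain and class are fitted. The comparisons with N2 have p-values from their own libraries. Replicates of a strain differed by more than sampling noise (chi-square per degree of freedom at least 30.7). The fit of SRP-rich against SRP-poor libraries was tested on simulated counts with 200 changed genes. edgeR recovered 0% of 2-fold changes, which lie at the call threshold, and 36.5% of 4-fold changes (0 and 5 false calls). DESeq2 recovered 3.5% and 51.5% (4 and 28 false calls). The other fits, among them those that called 0 genes in all, were not simulated. Their recovery is not known, so a count of 0 calls does not show that no gene differed.

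The split, the 33 gene lists (taken by symbol) and the naming rule were chosen with earlier results of these data known. Named genes were taken from *nrx-1*, *nlg-1*, the 3 RNAs, the 12 higher and 12 lower of smallest adjusted p that were apart within every strain, and in each list the 2 most abundant in N2 and that of smallest p; members of counts of 5 or fewer and *atp-6*, *hsp-6*, *hsp-12.2*, *hsp-25*, *hsp-110*, *srpa-72*, the other SRP and ER entry genes, B0285.12 and *lfor-1* were named after their values were seen. Alternatives were other tools, scalings, filters, thresholds, library sets and covariates, the replicate block, each replicate and each strain left out and, chosen after seeing the data, removal of the length trend.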

Additional observations from a re-analysis of the deposited data

Results flagged for a closer look

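In 230 sets of 8 SRP-rich or 4 SRP-poor libraries, 26 had a library far from the others by Dixon's criterion, which chance gives in about 1 of 20 sets, and the sets share libraries. In 19 of them *nrx-1* (tm1961) replicate 1 was the highest SRP-rich library. It had 4430.1 CPM of *unc-54* (next 2089.8), 1189.8 of *unc-15*, 1989.6 of *act-4*, 119.2 of *myo-2*, 1118 of *crt-1*, 198 of *ucr-2.1*, 1268 of *clec-63*, 36.5 of *lin-26*, 181 of *egl-3*, 76.1 of *ptp-3*, 118 of *itx-1* and 20.7 of *nlg-1* (next 10.4). It also had 66.2 CPM of *set-16*, 114.96 of *cbp-1*, 60.1 of *plx-1*, 67.4 of *larp-5*, 31.3 of *flp-28*, 3.74 of *nlp-53* and 5.67 of *flp-33*. For these genes other than *nlg-1* it lay on the side of the SRP-poor libraries, although its share of the 3 RNAs was 16.5%. *nlg-1* was not called between the classes, and the highest SRP-poor library had 12.3 CPM of it. *nrx-1* (tm1961) replicate 2 was the highest for *lat-1*, with 71.6 CPM.

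Among SRP-poor libraries *nlg-1* (tm474) replicate 3 stood apart with 14154 genes at 1 CPM or more (next 12573), 34.1 CPM of *mrpl-40* (next 53.1), 12.4 CPM of *his-70* (next 3.05) and 7.47 CPM of *hsp-16.2* (next 1.27). *nlg-1* (tm474) replicate 1 stood apart with 426 CPM of *trap-4* and 109 CPM of *snr-7*.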

How the results depend on the processing

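Counts of higher and lower genes were 6980 and 1736 with library totals without the 3 RNAs, 5854 and 2238 with totals including them, 5193 and 2509 with upper quartile scaling, 1615 and 2204 with the replicate block, 591 and 2362 without *nrx-1* (ok1649), 0 and 0 with the split at 5%, and, for higher genes, 2227 with the split at 12%, 2211 with the length trend removed, 781 without *nlg-1* (ok259) and 5216 without *nlg-1* (tm474). Leaving out each replicate gave 1603 (without *nrx-1* (ok1649) replicate 1) to 5357 higher (without *nlg-1* (tm474) replicate 3) and 2787 to 4176 lower genes, with 2119 and 2252 higher without *nlg-1* (ok259) replicates 1 and 2. Of the 7249 called genes, 2176 were also called under the block in the same direction and 5 in the other, and 6846 kept their sign. With strain and replicate number in this fit, only *nlg-1* (tm474) replicate 3 sets class apart from replicate number. The block values for SRP-rich against SRP-poor libraries thus rest on that library alone and hold its own deviation.

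In *nrx-1* (tm1961) against N2, DESeq2 gave 1888 higher and 1527 lower, the replicate block 2954 and 2372, and leaving out each replicate 0 to 3140 higher and 0 to 2980 lower. Leaving out each replicate gave 2448 (without N2 replicate 2; 2484 without N2 replicate 1) to 3872 higher and 2315 to 3578 lower for SRP-rich libraries against N2, and 0 to 281 higher and 0 to 2315 lower for SRP-poor libraries, with 3 and 111 without *nrx-1* (tm1961) replicate 1 and 2 lower without *nlg-1* (ok259) replicate 1. Of counts outside noncoding genes the 3 RNAs were 24.2% in SRP-rich libraries.

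Replicate numbers were not taken to pair the samples. The correlation of deviations of same-numbered libraries was 0.707 to 0.899 among replicate 1 libraries. It was 0.422 to 0.815 among replicate 2 and -0.402 to 0.514 among replicate 3 libraries. Replicate 1 libraries thus deviated alike, and they were SRP-poor in each of the fitted strains. The block values that follow rest on *nlg-1* (tm474) replicate 3, the only library that sets class apart from replicate number. With the block, *nrx-1* turned to -0.95, *his-70* to -0.081 and *col-19* to 0.61, and the medians of yolk (-0.43), oocyte (-0.26) and histone genes (-0.08) were nearer to 0, those of collagen (-1.99), molting (-2.16), neuropeptide (-0.11), meiosis (0.41) and C-type lectin genes (-0.19) turned, and that of epidermis markers was -3.88. *nrx-1* was also below 0 without strain (-0.10), at 5% (-0.16), without *nlg-1* (ok259) (-0.19) and, without single replicates, at -0.076 to 0.34, and *rps-17* was -0.036 with the length trend removed. The causes were not tested.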
